A study of Mus musculus with 2 samples.

Results

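The glucose uptake and glycogen genes described here are Slc2a1, Slc2a4, Hk1, Hk2, Pfkm, Pfkfb2, Gys1, Pygm and Mlxipl, which were taken by their symbols and are 9 of the 55357 genes listed in the deposited count matrices. They were followed across the cell types of the mouse heart and, among cardiomyocytes, between a Sham and a TAC library. TAC, transverse aortic constriction, narrows the aorta and loads the left ventricle with pressure. All mice were C57BL/6 by the labels, and 3 to 5 dissociated hearts were pooled into each library. The TAC mice were operated on at 8 weeks and their hearts taken 6 weeks later. The Sham group had the operation without the constriction according to the labels, which give it no age, whereas the design text speaks of uninjured mice. Each condition had 1 library with no replicate, so there is no test between conditions, no p-value was computed, and every interval below covers counting error only. The hearts within a library cannot be told apart.

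A cardiomyocyte takes up glucose through 2 main carriers, Slc2a1 (GLUT1), which sits in the cell surface at all times, and Slc2a4 (GLUT4), which insulin and contraction bring to the surface. Hexokinases (Hk1, Hk2) trap the sugar as a phosphate, which is either stored as glycogen by glycogen synthase (Gys1) and released again by glycogen phosphorylase (Pygm), or passed down glycolysis through phosphofructokinase (Pfkm). Pfkfb2 is the heart form of the enzyme that makes and breaks the sugar bisphosphate by which phosphofructokinase is activated. Mlxipl, also called ChREBP, is a transcription factor that responds to sugar phosphates and pairs with Mlx. It binds E-boxes like CACGTG in a spaced pair, the carbohydrate response element.

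Promoter windows around RefSeq transcript starts (GRCm38.p6) were searched on both strands for these elements, and 8 of the 9 genes were matched (all but Slc2a4). A single CACGTG was found in 2349 of all 32851 windows (7.15%) and in 3 of the 15 windows of the 8 genes, 1 each of Mlxipl, Pfkfb2 and Pfkm. The exact pair of CACGTG sites at the spacing of that element was in 0 of the 32851 windows. That search therefore cannot tell any gene from another. Inexact forms of the pair were not searched, so whether the windows hold the element is not known. The windows of Pfkfb2 at chr1:130715772-130716071 (minus strand) and of Mlxipl at chr5:135089640-135089939 (plus strand) are shown because these genes had the lowest TAC to Sham ratios among the 9 in cardiomyocytes; the E-box, in capitals, begins at -22 and at -98 from the start.
Pfkfb2: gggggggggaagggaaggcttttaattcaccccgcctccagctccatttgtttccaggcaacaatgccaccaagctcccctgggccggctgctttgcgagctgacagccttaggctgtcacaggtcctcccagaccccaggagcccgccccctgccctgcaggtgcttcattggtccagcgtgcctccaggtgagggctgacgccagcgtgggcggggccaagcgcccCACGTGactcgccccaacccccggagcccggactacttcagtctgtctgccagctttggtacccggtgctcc
Mlxipl: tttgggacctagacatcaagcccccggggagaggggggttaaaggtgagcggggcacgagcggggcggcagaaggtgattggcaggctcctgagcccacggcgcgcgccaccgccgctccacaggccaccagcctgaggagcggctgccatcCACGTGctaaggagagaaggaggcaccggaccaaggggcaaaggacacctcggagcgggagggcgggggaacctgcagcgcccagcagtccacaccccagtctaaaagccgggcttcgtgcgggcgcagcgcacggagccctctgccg
These matches describe letters only. Both genes have further annotated starts whose windows hold no CACGTG, and the reads, taken from the 3′ end of the mRNA, do not tell which start was used. The same letters are also bound by the clock factors Clock and Arntl. The core AGAACA of the glucocorticoid receptor's site was in 6233 of all windows (19%) and in 4 of the 15 windows, 1 each of Hk1, Mlxipl, Pfkfb2 and Pfkm.

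The 9 genes lie on 9 different chromosomes of GRCm38, and the positions below are whole gene bodies from GENCODE M21. Only Slc2a4 (chr11:69942539-69948188, minus strand) and Pygm (chr19:6384399-6398459, plus strand) overlap no other annotated gene. Pfkfb2 (chr1:130689182-130729253, minus strand) shares 26618 bases with the predicted gene Gm29427 and 1690 bases with Gm37163 on its own strand, and 7032 bases with Yod1 on the other, so reads in the shared stretches may be missing from its count or split. The overlaps of Slc2a1 (chr4:119108711-119137983), Hk1 (chr10:62268855-62379908), Hk2 (chr6:82725025-82774454), Pfkm (chr15:98092589-98132451), Gys1 (chr7:45434844-45456619) and Mlxipl (chr5:135089890-135138382) are with antisense transcripts or with neighbouring genes on the other strand, apart from Mir1957a in Slc2a1 and Gm26513 in Pfkm. How the counting treated strand and introns is not given in the sources used here.

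After removal of doublets the Sham library held 9475 cells with 25943020 UMIs and the TAC library 9452 cells with 26640422 UMIs, where a UMI (unique molecular identifier) marks 1 captured RNA molecule. Cells were clustered without the 9 genes and named from fixed markers, which gave 2515 Sham and 2396 TAC cardiomyocytes, with medians of 4503 and 4916.5 UMIs per cell. The 2 libraries shared 32 barcode sequences. Cardiomyocytes were 26.5% and 25.3% of cells but 52% and 49.2% of UMIs. Some values differ between the libraries in the same cells as the results below, and their part in those results was not tested. Malat1, a nuclear RNA, took 13.1% of the cardiomyocyte UMIs in Sham and 16.2% in TAC, and the median mitochondrial share was 0.234% and 0.128%. Neat1, the other nuclear RNA followed, went the other way, at 7547 UMIs per 1000000 in Sham and 3752 in TAC (0.497 of Sham). The labels describe dissociated cells, and whether whole cells or nuclei were captured was not settled, so a level may stand for nuclear RNA more than for the mRNA of the whole cell. Of 6 load and stress genes, 0 were higher past 1.5-fold and 2 were lower, Acta1 at 0.355 of Sham and Xirp2 at 0.638, while Myh7 stood at 1.36, Ankrd1 at 1.01, Nppa at 0.754 and Nppb at 0.774. Nppa, Nppb and Acta1 are known to rise under pressure load but were lower in TAC, Nppa and Nppb by less than 1.5-fold. Myh7 went the other way, higher in TAC by less than 1.5-fold, and Ankrd1 was near 1. Nothing here settles whether the labels are right, and if they were exchanged every ratio of TAC to Sham would turn over; TAC and Sham mean the libraries so labelled. Of 10 glucocorticoid-induced genes, 4 were lower past 1.5-fold and 0 higher, with Fkbp5 at 0.326 and Zbtb16 at 0.419 of Sham. Of 14 circadian clock genes 1 was lower past 1.5-fold, Tef at 0.51 of Sham, and 0 were higher. Over all genes tested in cardiomyocytes 12.8% were higher and 6.81% lower past 1.5-fold, so the clock count is near that share. The operation and the library differ together here and cannot be told apart.

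Levels are given as UMIs per 1000000 UMIs of a cell type, with exact Poisson 95% intervals. Of the 9 genes, 7 were at least 2-fold higher in cardiomyocytes than in all other cells together, in Sham and again in TAC, against 14.4% and 14.3% of all genes tested. The exceptions in both libraries were Slc2a1 and Hk1. Mlxipl stood furthest apart: its cardiomyocyte level was 23.2 times (95% interval 20.2 to 26.7) that of the other cells in Sham and 18.5 times (16.05 to 21.5) in TAC, and 96.2% and 94.7% of its UMIs were in cardiomyocytes. Pfkm followed at 9.42 and 10.7 times, Hk2 at 9.38 and 9.15, Pygm at 7.95 and 8.98, Pfkfb2 at 7.64 and 6.77, Gys1 at 6.45 and 5.20, and Slc2a4 at 5.34 and 5.33 times.

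**Figure D1:**
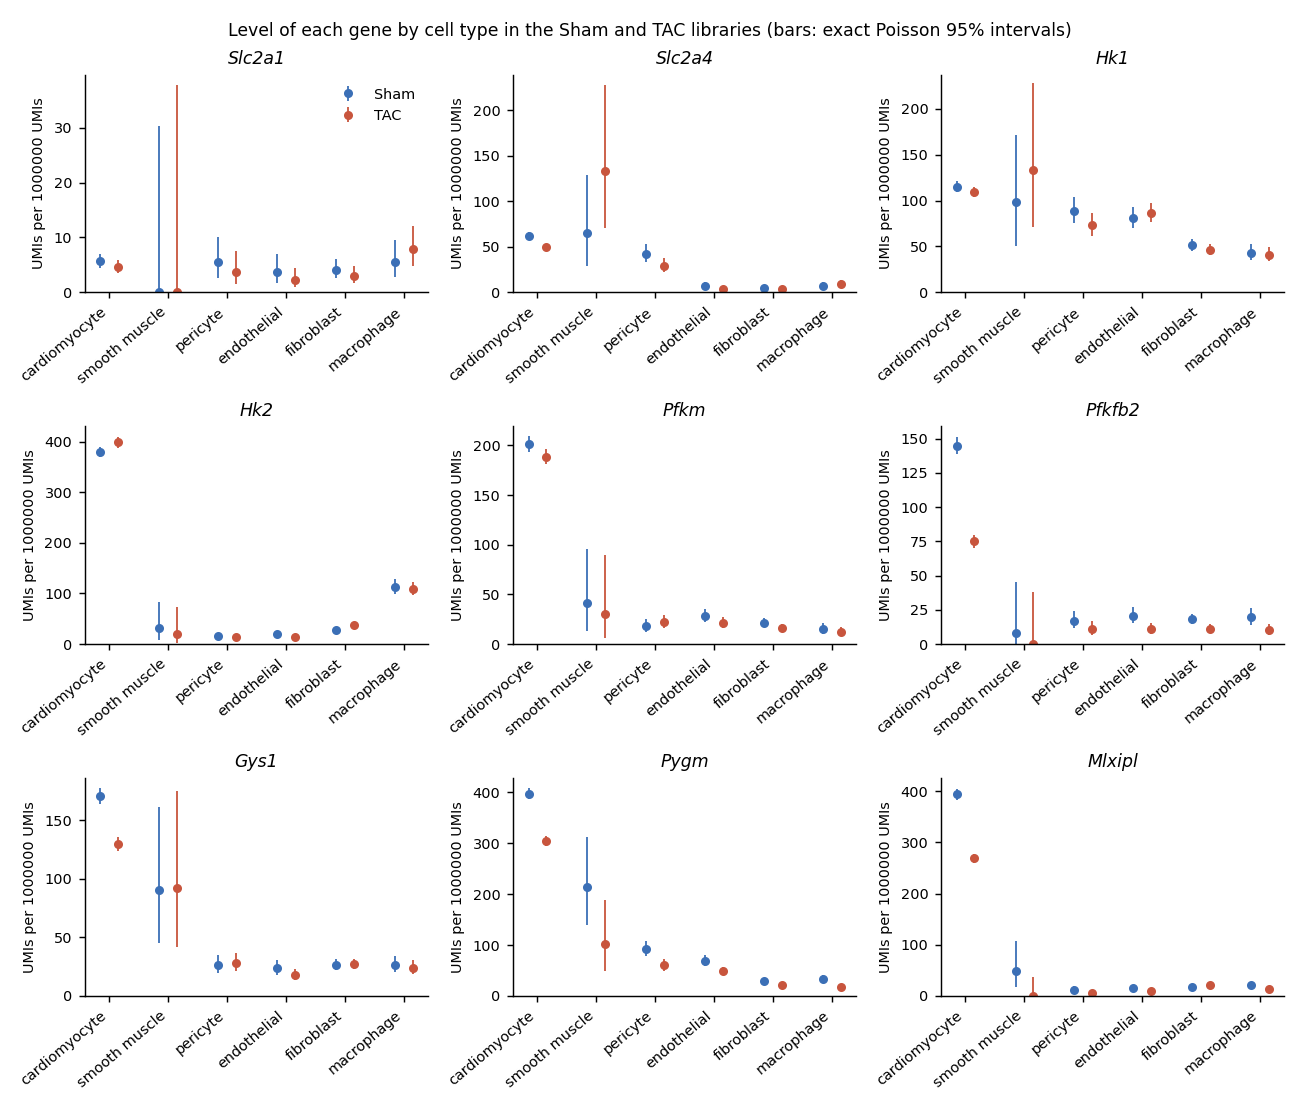
Level of each of the 9 genes (y axis, UMIs per 1000000 UMIs) in 6 cell types (x axis) of the Sham library (blue) and the TAC library (red), with exact Poisson 95% intervals. Cardiomyocytes stand above the other types for Hk2, Pfkm, Pfkfb2, Pygm and Mlxipl, whereas Slc2a1 and Hk1 are spread over the types, and the smooth muscle points rest on 48 and 43 cells.

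Cardiomyocyte transcripts were also counted in cells of the other types. Free RNA in the droplets is a possible source, which was not tested. The 9 cardiomyocyte markers, among them Myh6, Tnnt2 and Ttn, stood at 2% to 15.3% of their cardiomyocyte level in Sham fibroblasts, 3.76% to 27.8% in endothelial cells, 2.45% to 19.3% in pericytes and 2.8% to 20.6% in macrophages. A gene is called above this range only where the whole interval of its percentage lay above the highest marker; otherwise its level is read as not told apart from background. This limit is strict, because it was set by a single marker, Actc1, in each of these types: the next, Tnni3, stood at 7.33% in Sham fibroblasts and 13.04% in endothelial cells. Mlxipl was not above the range in any of the 4 types: it stood at 4.25% of its cardiomyocyte level in Sham fibroblasts, 3.87% in endothelial cells, 3.18% in pericytes and 5.29% in macrophages. Pfkm and Pfkfb2 were not above the range in any of these 4 types of either library.

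**Figure D2:**
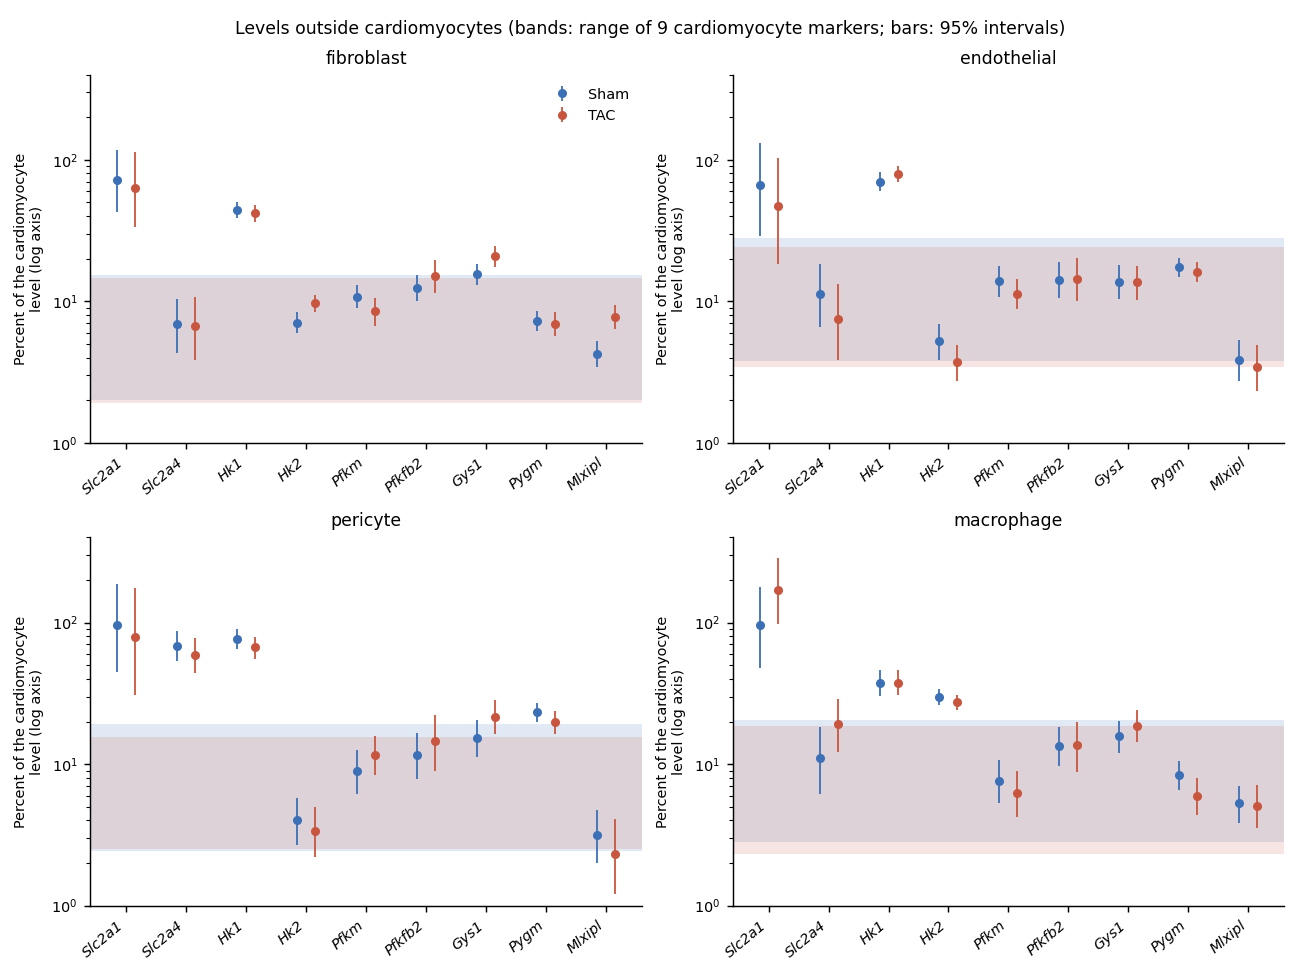
Level of each of the 9 genes in 4 other cell types as a percentage of its cardiomyocyte level (y axis, log axis), for Sham (blue) and TAC (red) with 95% intervals; the shaded bands are the ranges of the 9 cardiomyocyte markers. Hk1 lies above the bands in all 4 types, Slc2a4 above them in pericytes and Hk2 in macrophages, while Mlxipl lies in or below them in all 4.

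Slc2a1, the basal glucose carrier, was the scarcest of the 9 in UMIs, with 76 in Sham and 60 in TAC cardiomyocytes. Its level was 5.64 (4.44 to 7.05) in Sham cardiomyocytes and 4.57 (3.49 to 5.89) in TAC cardiomyocytes. The other main types of Sham lay at 3.71 to 5.44, with intervals that all overlap that of cardiomyocytes, so no order among the types was detectable in Sham at this depth. In TAC the highest of these levels was that of macrophages, 7.83 (4.783 to 12.1) from 20 UMIs. Its interval overlaps those of cardiomyocytes and pericytes and lies just above those of fibroblasts (1.62 to 4.771) and endothelial cells (0.871 to 4.465).

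Slc2a4, the insulin-responsive carrier, was at 61.8 (57.6 to 66.1) in Sham and 49.2 (45.5 to 53.2) in TAC cardiomyocytes. It was also found in the mural cells of the vessels. Pericytes had 42.5 (33.6 to 53.0) in Sham and 29.1 (22.0 to 37.8) in TAC, 68.7% and 59.2% of the cardiomyocyte level and above the marker range. Smooth muscle cells had 65.6 (28.3 to 129) from 8 UMIs in 48 Sham cells and 133 (70.9 to 228) from 13 UMIs in 43 TAC cells. The Sham interval spans the cardiomyocyte level, and the TAC interval lies above it. Fibroblasts (4.24 and 3.28) and endothelial cells (7.01 and 3.71) were not above the marker range. Among these types the pericytes also had the highest level of Trarg1, which is known to act on GLUT4 traffic. It was at 40.3 (31.6 to 50.6) in Sham pericytes and 30.7 (23.4 to 39.6) in TAC pericytes, against 0.222 and 0.0762 in cardiomyocytes. Tbc1d1, a Rab regulator that holds GLUT4 inside the cell, was at 786 in the pericytes of both libraries, at 557 and 461 in smooth muscle cells, and at 6.97 (5.63 to 8.53) and 5.34 (4.16 to 6.74) in cardiomyocytes. Its relative Tbc1d4, of like function, ran the opposite way, at 851 and 752 in cardiomyocytes against 53.3 (43.3 to 65.0) and 42.1 (33.5 to 52.4) in pericytes.

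Over the 11 combinations of cell type and library with at least 50 cells, the genes whose log2 level ran most like that of Slc2a4 were Mgst3 (Pearson's r = 0.979), Ppargc1b (0.973), Casq2 (0.964), Rdh13 (0.962) and Opa3 (0.937), out of 13740 genes. Those most like Mlxipl were Mast2 (0.983), Gm20619 (0.981), Tmem38a (0.98), A630019I02Rik (0.98) and Cpeb3 (0.979). The points share 2 libraries and, for each type, its depth and any free RNA, so these values only describe likeness of profile.

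Hk1, the hexokinase found in most tissues, was at 115 (109 to 121) in Sham and 109 (104 to 115) in TAC cardiomyocytes. Smooth muscle cells, at 98.3 (50.8 to 172) and 133 (70.9 to 228), and TAC T cells, at 183 (99.9 to 307) from 14 UMIs, had intervals that take in the cardiomyocyte level. Of those 14 UMIs, 4 were in 1 cell. Sham T cells did not match this, at 19.5 (0.494 to 108.7) from 1 UMI in 38 cells, an interval below the cardiomyocyte level. Of the larger types pericytes (88.7 and 72.8) and endothelial cells (80.8 and 86.7) came next and their intervals overlap each other in both libraries. Fibroblasts (51.2 and 45.9) and macrophages (43.0 and 41.1) were lower again and did not differ from each other beyond their intervals. Hk1 was above the marker range in pericytes, endothelial cells, fibroblasts and macrophages of both libraries.

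Hk2, the hexokinase of insulin-responsive muscle and fat, was at 380 (369 to 390) in Sham and 399 (388 to 410) in TAC cardiomyocytes. Macrophages were the one other main type above the marker range, at 113 (99.2 to 128) and 110 (97.2 to 123). Fibroblasts had 26.9 (22.7 to 31.6) in Sham and 38.6 (33.4 to 44.3) in TAC, intervals that do not overlap, with a ratio of 1.43 (1.15 to 1.79). That ratio is short of 1.5-fold, and neither level is above the marker range.

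Pfkm, the muscle phosphofructokinase, was at 201 (194 to 209) in Sham and 188 (181 to 196) in TAC cardiomyocytes, and at 11.7 to 28 in fibroblasts, endothelial cells, pericytes and macrophages of either library. Pfkfb2 was at 145 (138 to 151) in Sham and 75.1 (70.5 to 79.9) in TAC cardiomyocytes. In those other 4 types it was at 16.9 to 20.6 in Sham and 10.2 to 11.4 in TAC, so that it was lower in the TAC library in all 4. None of these levels was above the marker range.

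Gys1, the muscle form of glycogen synthase, was at 170 (164 to 178) in Sham and 130 (124 to 136) in TAC cardiomyocytes. Its levels in the 4 other main types were 17.6 to 28.1 over both libraries. Endothelial cells stood well inside the marker range, at 13.8% of the cardiomyocyte level in Sham (highest marker 27.8%) and 13.6% in TAC (24.3%). Fibroblasts, pericytes and macrophages lay nearer its upper end or past it. The percentage was above the range in TAC fibroblasts and pericytes, but their levels (27.0 and 28.1) were like those of Sham (26.5 and 26.1). The cardiomyocyte level that the percentage is taken from was lower in TAC. Smooth muscle cells had 90.1 (45.0 to 161) from 11 UMIs in Sham and 92.2 (42.2 to 175) from 9 UMIs in TAC.

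Pygm, the muscle glycogen phosphorylase whose loss causes McArdle disease, was at 397 (386 to 408) in Sham and 304 (294 to 313) in TAC cardiomyocytes. Pericytes had 92.5 (79.2 to 108) in Sham and 60.3 (49.9 to 72.4) in TAC, above the marker range in both. Smooth muscle cells had 213 (139 to 312) from 26 UMIs in Sham, 53.7% of the cardiomyocyte level and above the marker range. In TAC they had 102 (49.1 to 188) from 10 UMIs, 33.8% (16.2 to 62.1) of the cardiomyocyte level. That interval takes in the highest marker (25.9%). Endothelial cells (69.2 and 49.2) followed, at 17.4% (14.9 to 20.3) of the cardiomyocyte level in Sham, under Actc1 but above the other 8 markers, and fibroblasts and macrophages were lowest. The ranking of cardiomyocytes, smooth muscle cells and pericytes was the same in both libraries, but the TAC intervals of the last 2 overlap. The TAC level of smooth muscle cells is also not told apart from background.

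Mlxipl, the sugar-responsive transcription factor, was at 394 (384 to 405) in Sham and 269 (260 to 278) in TAC cardiomyocytes. With each cell thinned to 1000 UMIs, a Mlxipl UMI was seen in 32.1% (exact Clopper-Pearson 95% interval 30.2 to 33.9) of 2479 Sham cardiomyocytes and in 23.4% (21.7 to 25.1) of 2386 TAC cardiomyocytes, 36 and 10 shallower cells being left out. In fibroblasts thinned alike the share was 1.3% and 1.28%. Without thinning the shares were 75.5% and 64.5% in cardiomyocytes and 3.62% and 2.78% in fibroblasts, whose median depths were 2155 and 2268.5 UMIs.

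The TAC and Sham cardiomyocytes were then set against each other by the ratio of their levels with an exact conditional binomial 95% interval, and a gene was called when its levels differed at least 1.5-fold. Over all 13304 genes with at least 50 UMIs, 12.8% were called higher in TAC and 6.81% lower, and the median ratio was 1.02. Of the 9 genes, 0 were called higher and 1 was called lower. That gene was Pfkfb2, with 1953 UMIs in Sham and 985 in TAC and a ratio of 0.519 (0.48 to 0.56). Only 1.63% of the genes tested had a lower ratio. Mlxipl came just short of the 1.5-fold line with 5316 UMIs in Sham and 3524 in TAC and a ratio of 0.682 (0.653 to 0.711), and 7.68% of genes were lower.

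The muscle forms of the glycogen enzymes, of which one builds and the other breaks the store, had ratios with overlapping intervals. Gys1 had 2299 and 1701 UMIs and a ratio of 0.761 (0.714 to 0.81), and Pygm 5353 and 3982 UMIs and a ratio of 0.765 (0.734 to 0.797). Pygb, the brain form of the phosphorylase and no member of the 9, went the other way in the same cells, from 262 (253 to 270) in Sham to 348 (338 to 358) in TAC with a ratio of 1.33 (1.27 to 1.39). Slc2a4 had 833 and 646 UMIs and a ratio of 0.797 (0.718 to 0.885). Pfkm and the hexokinases among the 9 were nearer to 1. This does not hold for upper glycolysis as a whole, whose list had a median ratio of 0.824. The other phosphofructokinase genes Pfkl and Pfkp stood at 0.634 and 0.727. The ratio was 0.936 (0.886 to 0.989) for Pfkm, 0.949 (0.883 to 1.02) for Hk1 and 1.05 (1.01 to 1.09) for Hk2, the one gene of the 9 above 1. For Slc2a1 the ratio of 0.812 had an interval of 0.569 to 1.15, which takes in both no difference and a 1.5-fold lower level. In all, 8 of the 9 ratios were below 1. Over all genes tested 38.6% had a lower ratio than Hk1 and 54.5% a lower ratio than Hk2, so the share below 1 lies between these. Of the 9 genes, 6 had an interval wholly below 1, where 21.4% of all genes tested have such an interval, and 1 had an interval above 1 (25.3% of all genes). Intervals narrow as counts rise, and these shares were not matched for counts, so they are no like-for-like background. The median ratio of the 9 was 0.797.

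In the other main types 7 of the 9 genes had at least 50 UMIs, and none of these 7 was called higher. In fibroblasts 1 was called lower, Pfkfb2 (0.63; 0.448 to 0.879), where 10.6% of all genes tested were called higher and 4.35% lower. In endothelial cells 2 were called lower, Pfkfb2 (0.526; 0.331 to 0.826) and Mlxipl (0.609; 0.363 to 1.01), against 9.11% higher and 5.98% lower over all genes. In pericytes 2 were called lower, Pfkfb2 (0.647; 0.354 to 1.16) and Pygm (0.652; 0.51 to 0.831), against 7.36% and 6.52%. In macrophages 3 were called lower, Pfkfb2 (0.523; 0.308 to 0.87), Pygm (0.545; 0.368 to 0.799) and Mlxipl (0.658; 0.411 to 1.04), against 8.9% and 8.95%. The intervals of endothelial and macrophage Mlxipl and of pericyte Pfkfb2 take in 1. Only Pygm in pericytes was above the marker range there, with 170 UMIs in Sham and 116 in TAC; the other levels named here were not above the range of the cardiomyocyte markers and are not told apart from background.

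**Figure D3:**
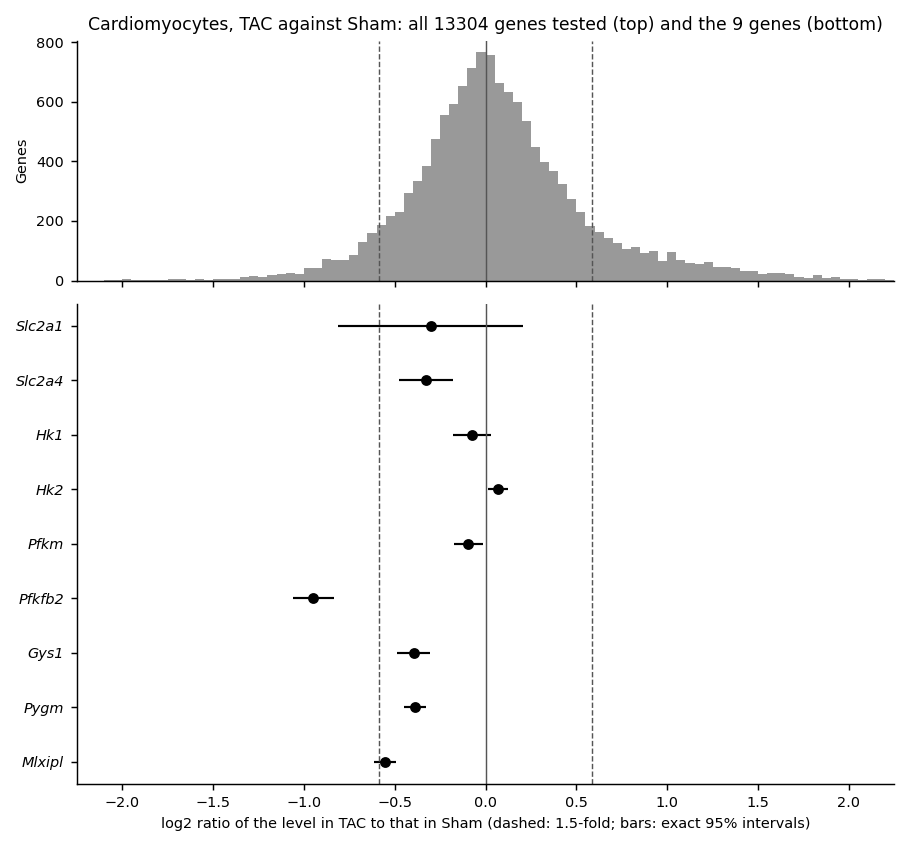
Ratio of TAC to Sham cardiomyocyte level on a log2 axis, as a histogram of all 13304 genes tested (top) and for each of the 9 genes with its exact 95% interval (bottom); dashed lines mark 1.5-fold. Pfkfb2 lies beyond the lower dashed line and Mlxipl at it, whereas Hk1, Hk2 and Pfkm lie near 0.

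The cardiomyocytes of the 2 libraries were spread differently over 2 clusters, which can bear on the cardiomyocyte ratios of genes that differ between them. With each library clustered by itself, a cluster led by Pdzrn4 and Kcnj3 held 31.5% of Sham and 62.4% of TAC cardiomyocytes, and a cluster led by Ankrd1 held 68.5% and 37.6%. These shares come from separate clusterings, whose borders can differ. Within Sham, Mlxipl was at 330 (315 to 346) in the first cluster and 435 (421 to 450) in the second, Pygm at 349 (334 to 366) and 428 (414 to 442), and Pfkfb2 at 126 (117 to 136) and 157 (148 to 166). Gys1, at 168 (157 to 180) and 172 (163 to 181), differed less than its intervals. Within TAC, Mlxipl was again lower in the first cluster, at 248 (238 to 258) against 315 (298 to 333), but Pygm, at 299 (288 to 310) and 314 (297 to 332), and Pfkfb2, at 74.8 (69.3 to 80.7) and 75.7 (67.5 to 84.7), had overlapping intervals. The clusters were made without these genes, but they group the same cells, so the values are a description.

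The libraries were also clustered together. This gave a cluster led by Pdzrn4 and Kcnj3 with 1267 Sham and 1759 TAC cells, 50.5% and 73.4% of the cardiomyocytes. A cluster led by Ankrd1 had 1243 and 637 cells, 49.5% and 26.6%. This comparison was added after the data were seen. The ratio of Pfkfb2 was 0.589 (0.536 to 0.648) in the first and 0.448 (0.384 to 0.521) in the second, past 1.5-fold in both. The ratio of Mlxipl was 0.745 (0.706 to 0.787) and 0.716 (0.664 to 0.771), each nearer to 1 than the 0.682 over all cardiomyocytes. Pygm had 0.836 (0.794 to 0.879) and 0.677 (0.625 to 0.732), Gys1 0.762 (0.706 to 0.823) and 0.786 (0.696 to 0.886), and Hk2 1.07 (1.02 to 1.13) and 1.08 (1.0 to 1.16). Slc2a4 had 0.804 (0.705 to 0.916) in the first cluster and 0.914 (0.76 to 1.1) in the second, where the interval takes in 1. The levels of Pfkfb2, Mlxipl, Pygm and Gys1 were lower in TAC than in Sham in each cluster. The leading genes also differed between the libraries within a cluster. Kcnj3 was at 566 in Sham and 670 in TAC in the first, and Ankrd1 at 470 and 673 in the second. The part of the cluster mix in the ratios was not tested.

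**Figure D4:**
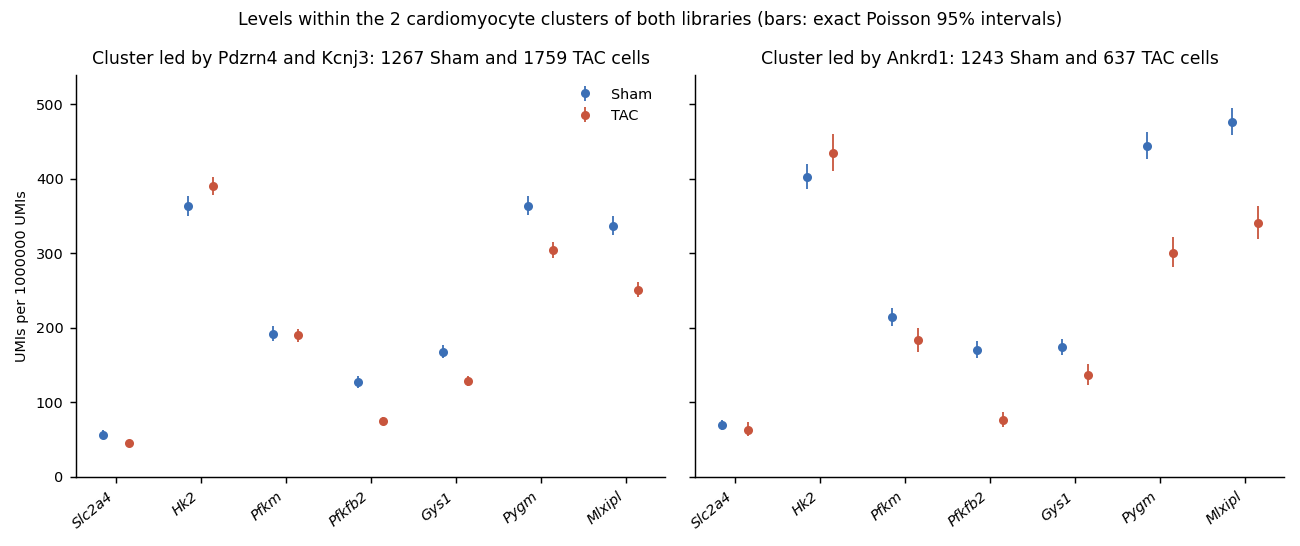
Levels (y axis, UMIs per 1000000 UMIs) of 7 of the 9 genes in the 2 cardiomyocyte clusters of the joint clustering, for Sham (blue) and TAC (red), with exact Poisson 95% intervals. In both clusters the TAC points of Pfkfb2, Gys1, Pygm and Mlxipl lie below the Sham points, and that of Hk2 lies above.

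Cells in which a UMI of the natriuretic genes Nppa or Nppb was seen numbered 386 in Sham and 192 in TAC; this split was also made after the data were seen. Mlxipl was higher in these cells than in the rest, at 430 (404 to 457) against 386 (375 to 398) in Sham and 358 (326 to 392) against 259 (250 to 268) in TAC. Slc2a4 was at 55.8 (46.8 to 66.0) against 63.1 (58.5 to 67.9) in Sham and 36.6 (26.9 to 48.5) against 50.7 (46.7 to 54.9) in TAC, with intervals that overlap. In TAC, Gys1, at 95.9 (79.9 to 114) against 133 (127 to 140), and Pfkm, at 157 (136 to 180) against 192 (184 to 200), were lower in such cells with intervals apart, while in Sham their intervals overlapped. Cells with such a UMI were the deeper ones, with medians of 5271.5 against 4390 UMIs in Sham and 6076 against 4848.5 in TAC.

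The wider pathways were read from 7 lists holding 111 genes, of which 92 had at least 50 UMIs in cardiomyocytes. Of these 92, 4 were called higher in TAC and 10 lower (4.35% and 10.9%), against 12.8% and 6.81% of all genes tested. The median ratio of the 92 was 0.952 and that of all genes 1.02.

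Among glucose transporters 0 of 6 tested were higher and 1 was lower, against 12.8% and 6.81% of all genes, with a median ratio of 0.941. With so few genes these counts cannot be told from those shares. The lower one was Slc2a8, a carrier of internal membranes, at 16.1 in Sham and 10.4 in TAC (0.649; 0.52 to 0.808). In upper glycolysis 0 of 13 were higher and 3 were lower, against 12.8% and 6.81% of all genes, and the median ratio was 0.824. Beside Pfkfb2 they included Pfkl, the liver phosphofructokinase, at 26.3 in Sham and 16.7 in TAC (0.634; 0.534 to 0.753). In lower glycolysis 1 of 9 was higher, near the share of all genes: Ldha, lactate dehydrogenase A, at 26.6 in Sham and 40.9 in TAC (1.54; 1.34 to 1.76), and 0 were lower, with a median ratio of 1.1. Gapdh stood at 1.3 (1.13 to 1.5), Pgam1 at 0.927 (0.777 to 1.1) and Pkm, the muscle pyruvate kinase, at 0.807 (0.75 to 0.868).

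Of 20 glycogen genes 2 were lower and 0 higher, against 6.81% and 12.8% of all genes, with a median ratio of 0.966. The lower ones were Phkg2, a catalytic subunit of phosphorylase kinase (0.644; 0.535 to 0.774), and Gaa, the lysosomal enzyme that breaks glycogen (0.662; 0.561 to 0.781). Gyg, glycogenin, on which a glycogen particle starts, stood at 1.39 (1.2 to 1.6) and Ppp1r3b, which brings a phosphatase to glycogen, at 1.36 (1.21 to 1.53), both short of 1.5-fold.

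Among 13 genes of pyruvate entry into mitochondria 1 was lower, Pdk4, the kinase that shuts pyruvate dehydrogenase, at 347 in Sham and 205 in TAC (0.591; 0.563 to 0.619), and 0 were higher. Over all genes 6.81% were lower and 12.8% higher, so the lower count is near its share. The median ratio of these 13 was 1.1. Of 17 genes of insulin signalling and Slc2a4 trafficking 1 was higher and 2 were lower, against 12.8% and 6.81% of all genes, with a median ratio of 0.996. The higher one was Vamp2, a vesicle fusion protein (1.62; 1.32 to 1.99). The lower ones were Pik3r1, the regulatory subunit of phosphoinositide kinase, at 1077 in Sham and 632 in TAC (0.587; 0.572 to 0.603), and Aspscr1 (TUG), which tethers GLUT4 vesicles (0.666; 0.561 to 0.789).

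Among 14 partners and targets of Mlxipl, 2 were higher and 1 lower, near the shares of all genes (12.8% and 6.81%). The partner Mlx stood at 0.682 (0.485 to 0.952). The lower one was Arrdc4, an arrestin-like target, from 74 and 46 UMIs (0.639; 0.432 to 0.936). Klf10, a target known from liver, was at 5.19 in Sham and 21.3 in TAC, a ratio of 4.1 (3.14 to 5.4), the highest of the 92. Thrsp, a lipogenic target, passed 1.5-fold from only 23 and 35 UMIs, with an interval that takes in 1 (1.56; 0.899 to 2.77).

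**Figure D5:**
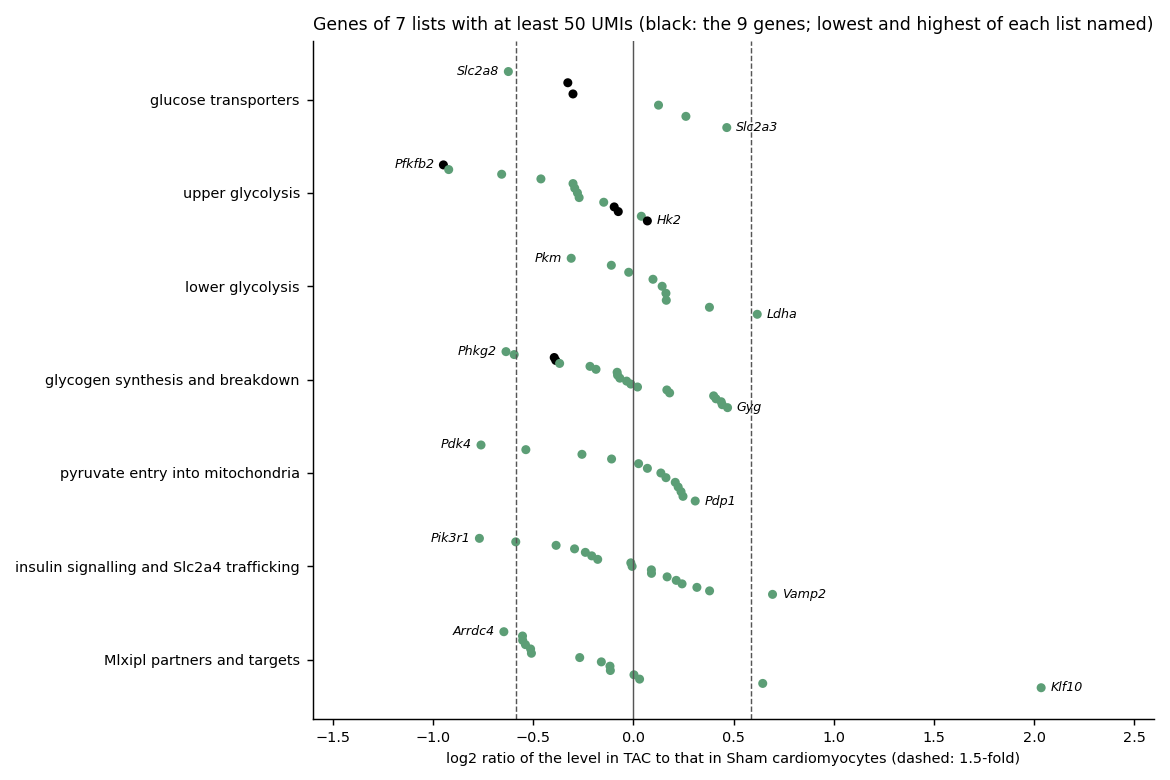
Ratio of TAC to Sham cardiomyocyte level on a log2 axis (x axis) for the genes of 7 pathway lists (y axis) with at least 50 UMIs; black points are among the 9 genes, dashed lines mark 1.5-fold, and the lowest and highest gene of each list are named. Upper glycolysis has 3 genes beyond the lower line and none beyond the upper, and Klf10 stands apart on the right.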

How the data were processed

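The authors built 2 libraries with the 10x Chromium 3-prime kit (V3 by the labels, v2 in the paper), counted UMIs with Cell Ranger (7.1.0 per the file headers and labels, another release in the paper) and deposited raw counts per gene and barcode. Genome build, use of introns and the barcode filter are not given in the sources used here. The matrices held 28146692 and 29108986 UMIs in 9935 and 9932 barcodes.

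Barcodes under 200 genes (1 per library) and Scrublet doublets (459 and 479) were removed. Each library was clustered with scanpy 1.11.5 and igraph 0.11.9 (Leiden, resolution 1, 2000 variable genes, 30 components, 15 neighbours), leaving out the 9 genes, the list genes and mitochondrial genes. Clusters were named from at least 3 markers, so names are rebuilt ones. Counts were summed by type. Of the gene identifiers 94.1% were in GENCODE M21. Aldoa is on more than 1 row and the row with most UMIs was used. No test between libraries was possible. The ratio step was also run on simulated Poisson counts. These hold no spread between hearts or libraries, so that run checks the computation only.

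The 9 genes, and of each list the 2 genes with the highest and the 2 with the lowest ratio, were eligible to be named; others, such as Pfkl, Pygb, Trarg1, Tbc1d1 and Tbc1d4, were named after their values were seen. Members and lists were chosen with earlier results of these data known. One gene of the lists is not reported here by name. Alternatives are given in the closing section.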

Additional observations from a re-analysis of the deposited data

How the results depend on the processing

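No ratio of the 9 genes changed direction and Pfkfb2 stayed past 1.5-fold under every alternative computed: other limits on genes or mitochondrial share, no doublet removal, resolution 0.5 or 2, more variable genes, both libraries clustered together, typing by each cell's own markers, cells weighted equally, ratios divided by the median of all genes, the cell with most UMIs left out, levels without mitochondrial genes or, added after the data were seen, without Malat1 and within each joint cluster. Of 144 ratios 127 moved by less than their interval and 17 by more. The cardiomyocyte levels moved past their intervals in 31 of 198 cases, 16 of them with each cell's own markers, 12 with equal weights and 3 at resolution 2, and the shares of cells with a UMI in 68 of 90, chiefly with the depth of thinning. With each cell's own markers, which gave 4453 Sham and 3431 TAC cardiomyocytes, the ratio was 1.12 for Hk2, 0.997 for Pfkm, 0.813 for Gys1, 0.813 for Pygm and 0.731 for Mlxipl. At resolution 2, which left 2007 Sham cardiomyocytes, Pygm had 0.729 and Mlxipl 0.642, and with equal weights Mlxipl had 0.641; both of these Mlxipl values are past 1.5-fold. In the joint cluster led by Ankrd1 the ratios were 0.551 for Slc2a1 (36 and 10 UMIs), 0.914 for Slc2a4, 0.853 for Pfkm, 0.448 for Pfkfb2, 0.677 for Pygm and 0.716 for Mlxipl, and in that led by Pdzrn4 and Kcnj3 0.589 for Pfkfb2, 0.836 for Pygm and 0.745 for Mlxipl. Of the 92 list genes, 6 were lower without Malat1 (5.38% of all genes), 12 higher and 22 lower at a smaller fold (24.2% and 17.3% of all genes), and 1 higher and 0 lower at 2-fold (5.55% and 1.31%). With a minimum of 20 UMIs, 98 list genes were tested and 9 were higher (16.3% of all genes). The cause of these shifts was not tested, beyond the changed threshold itself. No paired analysis was possible because a single library stood for either condition and no test was made. Precision is limited by counts for Slc2a1, for smooth muscle cells and for other rare types; no interval covers the spread between hearts or libraries.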
